A study of Mus musculus with 12 samples.

Results

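The 33 genes described here serve cholesterol synthesis and the export, transport and turnover of cholesterol, and were taken by name from a table of 56941 genes. Of these, 18 encode enzymes of synthesis, 7 encode the sensors and transcription factors that control the pathway, and 8 encode proteins of export, transport and turnover. All 33 were found once in the table. They were measured by RNA sequencing of hippocampal astrocytes from adult naive male mice, sorted by fluorescence with an antibody against the astrocyte surface antigen ACSA-2. The Ctrl mice were Tnfrsf1bfl/fl, with both copies of the gene for the TNF receptor TNFR2 floxed and no Cre. The cKO mice were GfapcreERT2:Tnfrsf1bfl/fl, the same floxed gene with an inducible Cre recombinase driven by the Gfap promoter. No mice without floxed alleles and none with Cre alone were in these groups, so effects of the floxed alleles or of Cre itself cannot be told apart from the groups. The exact age, the inducing treatment and whether animals were pooled are not given in the sources used here.

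There were 12 libraries, 6 per genotype. Each A number in the labels (A1, A2 and A8 in Ctrl; A4, A9 and A10 in cKO) has an S1 and an S2 library, which were averaged, so n = 3 A numbers per genotype. The labels do not say what an A number is, and p-values measure the spread between A numbers only. Values are FPKM, fragments per kilobase of the gene, scaled to the same total of assigned fragments in each library, so levels can be compared between genes. Because the deposited length covers every annotated exon, a gene with many alternative exons gets a lower FPKM. Depth, recovered from the steps between low values, was 17311872 to 35323323 reads per library. Both A8 libraries stood apart, with 21342 and 21572 genes above 0, against 23669 to 26668 in the other 10. Tnfrsf1b could not check the labels: it was at 0 in 9 of 12 libraries, at 4 reads in A1 S1, and at 10 and 22 reads in the libraries of A4, which is labelled cKO. The groups are therefore the libraries labelled Ctrl and cKO. Mean Gfap was 78.5 FPKM (SD 29.0, n = 3) among Ctrl and 117 FPKM (SD 33.9, n = 3) among cKO A numbers, which differed by 0.59 on the log2 scale (SE 0.29, limma adjusted p = 0.718). That difference was 0.37 without A10 and 1.48 with the oligodendrocyte marker level as a covariate.

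Cholesterol does not cross into the brain from blood plasma in useful amounts, so brain cells make their own. It is built from acetyl-CoA through mevalonate and isoprenoid units to squalene, which is cyclised to lanosterol and trimmed in the sterol branch of the pathway. When sterol in the endoplasmic reticulum is low, SCAP escorts the SREBP transcription factors to the Golgi for cleavage, and they then switch on the genes of synthesis; INSIG proteins hold the complex back when sterol is plentiful. Excess sterol, sensed as oxysterols by the LXR receptors, leaves astrocytes through ABC transporters onto apolipoprotein E and clusterin particles that neurons take up.

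SREBPs usually act with the factor NF-Y, which binds the CCAAT box, so the promoters of the 33 genes were searched for a core of the sterol regulatory element, TCACNCCAC, and for CCAAT, on both strands; the letters of the motifs do not overlap in the sequences shown. RefSeq promoters (GRCm38.p6, 250 bases before to 50 bases after a start site) matched 26 of the 33 genes by symbol. Fdps, Fdft1, Sqle, Abcg1, Clu, Stard4 and Npc1 had none. A CCAAT box was present in 14 of the 15 synthesis genes with a promoter (93.3%), all but Acat2, in 4 of 7 sensing genes and in 2 of 4 export, transport and turnover genes. It was present in 41.1% of all 27025 genes in the promoter table, and in 37.4% of its 32851 promoters. The sterol regulatory core was found in 1 of the 26 genes searched, Hmgcs1, against 1.44% of all genes in the promoter table and 1.24% of its promoters. A match is a description of letters, not a binding site. The search allowed no mismatched letter, so a gene without a match can still hold a variant of either motif.

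The promoters of 5 genes are shown, 5′ to 3′ in the direction of the gene, with every CCAAT (or its reverse, ATTGG) and the sterol regulatory core in capitals. Hmgcs1, Msmo1, Insig1 and Srebf2 are shown as examples of 13 of the 33 genes with a shared order, given further on. These were lower in A8 than in A1 and A2 and higher in A10 than in A4 and A9. Pmvk, Idi1, Lss, Cyp51, Hsd17b7 and Dhcr7 had this order and a promoter too, but are not shown. Whether the motifs go with this order was not tested. Abca1, a target of the LXR receptors, is shown as an export gene with 0 matches.
Hmgcs1, chr13:119690101-119690400, plus strand: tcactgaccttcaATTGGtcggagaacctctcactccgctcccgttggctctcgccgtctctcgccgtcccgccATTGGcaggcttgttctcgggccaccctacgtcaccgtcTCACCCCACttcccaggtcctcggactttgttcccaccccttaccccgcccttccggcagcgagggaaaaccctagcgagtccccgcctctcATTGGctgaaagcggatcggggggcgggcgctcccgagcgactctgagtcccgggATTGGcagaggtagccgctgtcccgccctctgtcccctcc
Msmo1, chr8:64733529-64733828, minus strand: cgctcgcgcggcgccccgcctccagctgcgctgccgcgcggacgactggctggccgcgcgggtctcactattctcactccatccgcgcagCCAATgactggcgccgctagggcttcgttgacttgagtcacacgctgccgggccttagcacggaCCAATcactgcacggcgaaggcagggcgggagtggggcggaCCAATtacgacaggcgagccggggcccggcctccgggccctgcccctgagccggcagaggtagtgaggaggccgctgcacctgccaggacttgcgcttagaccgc
Insig1, chr5:28071162-28071461, plus strand: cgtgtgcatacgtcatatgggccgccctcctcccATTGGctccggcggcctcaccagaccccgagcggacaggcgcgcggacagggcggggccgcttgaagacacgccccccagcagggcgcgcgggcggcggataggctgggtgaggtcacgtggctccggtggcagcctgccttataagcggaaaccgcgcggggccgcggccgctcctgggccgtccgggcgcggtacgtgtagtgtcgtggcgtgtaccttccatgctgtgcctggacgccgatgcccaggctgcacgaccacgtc
Srebf2, chr15:82147019-82147318, plus strand: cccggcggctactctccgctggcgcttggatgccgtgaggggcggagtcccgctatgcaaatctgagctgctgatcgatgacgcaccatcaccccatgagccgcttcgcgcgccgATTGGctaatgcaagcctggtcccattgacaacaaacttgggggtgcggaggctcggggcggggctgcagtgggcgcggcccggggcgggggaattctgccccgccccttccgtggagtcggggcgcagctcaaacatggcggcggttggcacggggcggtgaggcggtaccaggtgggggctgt
Abca1, chr4:53159846-53160145, minus strand: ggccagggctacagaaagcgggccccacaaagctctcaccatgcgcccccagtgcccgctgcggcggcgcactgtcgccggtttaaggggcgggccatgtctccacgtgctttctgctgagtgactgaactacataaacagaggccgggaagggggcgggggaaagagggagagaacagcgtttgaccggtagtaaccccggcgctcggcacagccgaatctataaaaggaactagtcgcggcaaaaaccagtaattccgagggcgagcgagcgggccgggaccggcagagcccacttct
Hmgcs1 had 4 CCAAT boxes and the sterol core, which began 137 bases before the start site. Msmo1 had 3 CCAAT boxes, at 160, 96 and 55 bases before the start site, and Insig1 and Srebf2 had 1 each.

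The carrier genes Apoe and Clu differed in level from the synthesis genes far more than the genotypes did. The transcript of Apoe, the main lipid carrier of the brain, averaged 1815 FPKM over the 6 A numbers, and that of Clu, which encodes the second carrier, clusterin, averaged 747 FPKM. The median of the 18 synthesis genes was 15.6 FPKM, and the highest of them, Hmgcs1, reached 88.1 FPKM. Apoe was thus at 116 times the median synthesis gene, and ranked 22nd of 17540 tested genes. Together Apoe and Clu made up 94.6% to 96.4% of the summed FPKM of the 8 export, transport and turnover genes in each A number. Without these carriers the groups of genes overlapped in level: Abca1, Npc1, Npc2, Cyp46a1, Stard4 and Abcg1 ranged from 51.6 down to 3.35 FPKM, and the synthesis genes from 88.1 to 3.14 FPKM. The median synthesis gene lay at the 86.6th percentile of tested genes by level. The median export, transport and turnover gene was close to it, at 19.7 FPKM and the 89.0th percentile. The strand setting of the counting is not given in the sources used here, and 14 of the 33 genes overlap another annotated gene, so their levels are uncertain. The overlapping gene was highest for Fdft1 (Ctsb, 46.5 FPKM), Hmgcs1 (Gm48342, 37.6 FPKM), Cyp51 (Akap9, 16.5 FPKM) and Npc1 (Gm15956, 13.8 FPKM, and Rmc1, 7.48 FPKM). It was lower for Srebf1 (Rai1, 8.73 FPKM), Tm7sf2 (Vps51, 5.76 FPKM), Srebf2 (Gm49502, 4.79 FPKM), Scap (5830462I19Rik, 3.83 FPKM) and Lss (4930483K19Rik, 3.27 FPKM). Idi1, Fdps, Insig2, Nr1h3 and Abcg1 overlap genes at 2.09 FPKM or less.

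**Figure D1:**
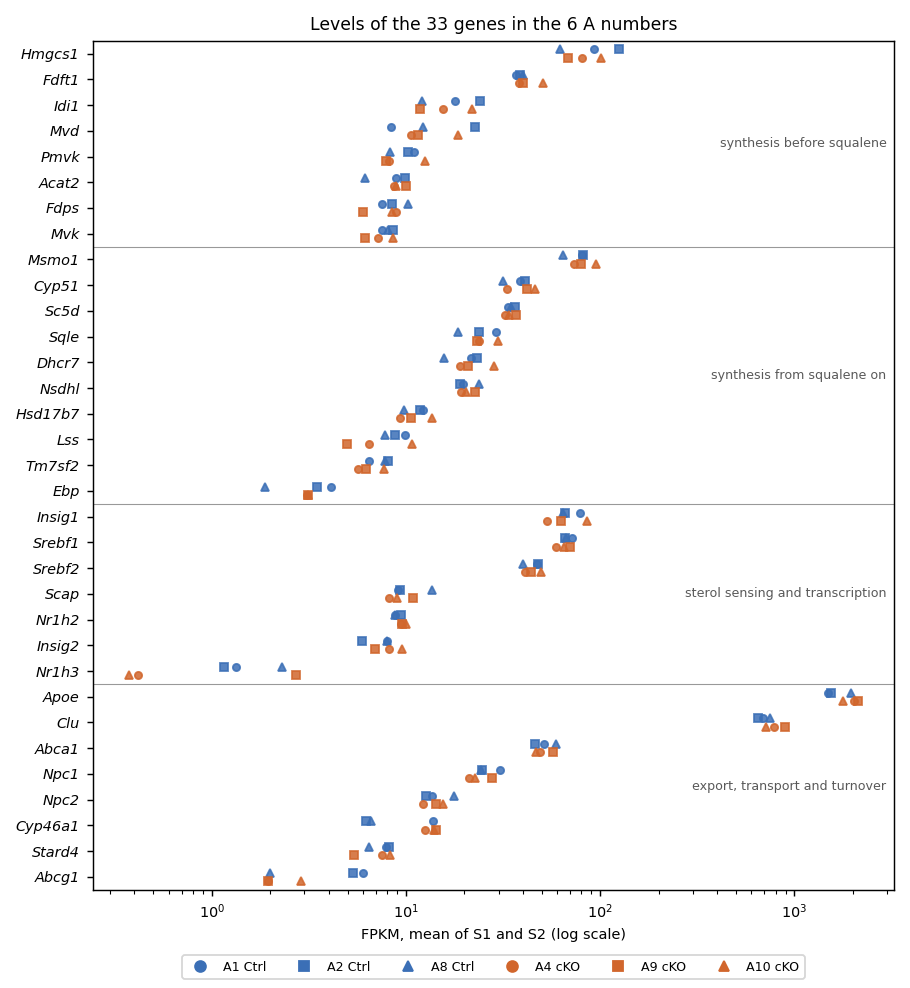
Level of each of the 33 genes, as FPKM on a log axis, in the 6 A numbers (mean of the S1 and S2 libraries); blue points are Ctrl, orange points cKO, and lines part the groups by role. Apoe and Clu lie above every other gene, and the points of both genotypes overlap in all genes but Nr1h2.

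The genotype comparison asks whether astrocytes of mice carrying the Gfap-driven Cre differ from Cre-free controls. After adjustment over the 17540 genes tested, limma called 0 (0.00%) at p under 0.05, and so 0 of the 33. Without adjustment, p was under 0.05 in 7.69% of tested genes (1349, of which 826 were lower in cKO) and in 0 of the 33. The A numbers of the genotypes did not overlap in 13.0% of tested genes, and in 1 of the 33, Nr1h2. Of the 18 synthesis genes, 11 were lower (50.8% of tested genes were) and 7 higher in cKO, with a median log2 fold change of -0.01, which is the median of all tested genes. The export, transport and turnover genes had a median of -0.05, with 5 lower and 3 higher, and the sensing genes a median of -0.07, with 5 lower and 2 higher. These signs turned with the scaling: with the libraries set to the same upper quartile, 12 of 18 synthesis genes were higher in cKO, as were 22 of the 33 and 57.8% of all tested genes. With median-of-ratios scaling, 10 of the 18 and 16 of the 33 were higher, as were 52.1% of all tested genes. Both scalings shifted all tested genes towards cKO. The export, transport and turnover genes were 5 lower and 3 higher with median-of-ratios scaling, as in the deposited scale, but 3 lower and 5 higher with upper quartile scaling. The sensing genes were 4 lower and 3 higher with median-of-ratios scaling, and 2 lower and 5 higher with upper quartile scaling. When the 12 libraries were fitted singly, with a random effect for A number, 112 (0.639%) of the tested genes passed after adjustment, and 0 of the 33. That fit uses the same correlation for every gene and more libraries than A numbers, so its p-values can be too small. In 30 of the 33 genes the 95% interval of the difference lay within 2-fold in both directions; the exceptions were Nr1h3, Abcg1 and Cyp46a1. Many of the differences rest on single A numbers, so for the genes given with a test the range with 1 A number left out follows, together with the value from a fit that holds the level of oligodendrocyte markers as a covariate, where either turns the sign or moves it over 1.5 times.

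**Figure D2:**
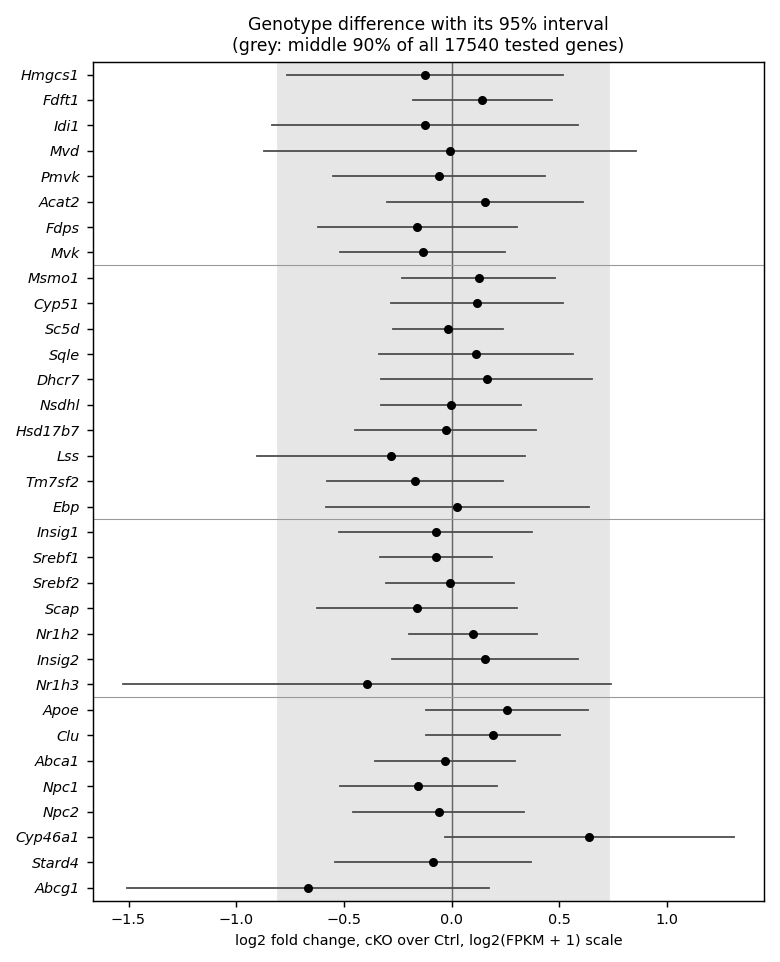
Log2 fold change of each gene, cKO over Ctrl, on the log2(FPKM + 1) scale (points) with its 95% interval from limma (lines), n = 3 A numbers per genotype. The grey band, from -0.80 to 0.73, holds the middle 90% of all tested genes, every point lies in it, and every interval crosses 0.

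The enzymes before squalene spanned 7.68 to 88.1 FPKM. Hmgcs1, cytosolic HMG-CoA synthase, an enzyme of the mevalonate route (ENSMUSG00000093930, chromosome 13, start 120151915, end 120169796 in the deposited table), was the highest. Its values were 93.1, 124.7 and 61.7 FPKM in Ctrl A1, A2 and A8, and 80.3, 67.9 and 101 FPKM in cKO A4, A9 and A10. The Ctrl values were spread more widely than the cKO values, and enclosed all of them. The log2 fold change was -0.13 (SE 0.27, 95% interval -0.76 to 0.51, limma adjusted p = 0.966); without A8 it was -0.39, and without A2 it was 0.11; with the covariate it was 0.81.

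Fdft1, squalene synthase, which joins farnesyl units into squalene (chromosome 14, start 63382599, end 63417027), had the smallest p of this group. It stood at 37.0, 38.5 and 40.3 FPKM in A1, A2 and A8, and at 38.3, 40.0 and 50.7 FPKM in A4, A9 and A10. A10 was high, and the other cKO values lay inside the Ctrl range (log2 fold change 0.14, SE 0.14, limma adjusted p = 0.891). Without A10 the difference was 0.020 and without A4 it was 0.22; with the covariate it was 0.39.

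Mvk, mevalonate kinase, averaged 8.06 ± 0.548 (Ctrl) and 7.31 ± 1.20 FPKM (cKO; SD, n = 3 each). Fdps, which makes farnesyl diphosphate, averaged 8.76 ± 1.39 and 7.77 ± 1.56 FPKM. Their log2 fold changes were -0.13 (SE 0.16, limma adjusted p = 0.919) and -0.16 (SE 0.20, limma adjusted p = 0.921). Mvk ran from -0.24 without A10 to -0.034 without A9, and Fdps from -0.25 without A1 to -0.0025 without A9. With the covariate they were 0.088 and -0.35. Idi1, the isopentenyl diphosphate isomerase, ran from 11.7 FPKM in A9 to 23.9 FPKM in A2, with means of 17.96 ± 5.96 FPKM in Ctrl and 16.4 ± 5.13 FPKM in cKO. Mvd, which makes isopentenyl diphosphate, had the widest range of any synthesis gene, 2.72-fold, from 8.34 FPKM in A1 to 22.6 FPKM in A2, both Ctrl. Pmvk, phosphomevalonate kinase, averaged 9.86 and 9.55 FPKM in Ctrl and cKO, and Acat2, the cytosolic thiolase, 8.29 and 9.21 FPKM. In these genes too the genotypes overlapped.

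The enzymes from squalene on spanned 3.14 to 79.2 FPKM. Msmo1, the sterol C4-methyl oxidase (ENSMUSG00000031604, chromosome 8, start 65171173, end 65186826), led them with 80.8, 82.0 and 64.3 FPKM in A1, A2 and A8 and 73.3, 79.5 and 95.3 FPKM in A4, A9 and A10. A8 was the lowest and A10 the highest, and the other 4 lay between 73.3 and 82.0 FPKM (log2 fold change 0.13, SE 0.15, 95% interval -0.23 to 0.48, limma adjusted p = 0.917). Without A8 it was 0.014, without A10 it was 0.021 and without A4 it was 0.21; with the covariate it was 0.66. Lss, lanosterol synthase, which closes the sterol rings, had the smallest p of this group, with 9.82, 8.76 and 7.76 FPKM in Ctrl and 6.44, 4.95 and 10.7 FPKM in cKO in the same order. Its lowest and highest values were thus both in cKO (log2 fold change -0.28, SE 0.26, limma adjusted p = 0.888). The difference ran from -0.55 without A10 (limma adjusted p = 0.735) to -0.064 without A9, and was 0.47 with the covariate. Tm7sf2, a sterol C14 reductase, had means of 7.43 ± 0.873 (Ctrl) and 6.51 ± 1.07 FPKM (cKO), SD over 3 each (log2 fold change -0.17, SE 0.17, limma adjusted p = 0.896). It ran from -0.28 without A10 to -0.085 without A4, and was 0.072 with the covariate.

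Sqle, squalene epoxidase, a rate-limiting enzyme of the sterol branch, ran from 18.5 FPKM in A8 to 29.8 FPKM in A10. Dhcr7, which makes the last reduction of one route to cholesterol, ran from 15.7 FPKM in A8 to 28.3 FPKM in A10. Cyp51, lanosterol demethylase, ran from 31.4 FPKM in A8 to 46.4 FPKM in A10. In each of these 3 genes the lowest value was in Ctrl and the highest in cKO, while the other values overlapped. Hsd17b7, a sterol ketoreductase, averaged 11.3 and 11.1 FPKM in Ctrl and cKO. Nsdhl, which works in the same demethylation step, averaged 20.8 and 20.7 FPKM, and Sc5d, the C5 desaturase, 34.9 and 34.5 FPKM. Sc5d had the smallest spread of the 33 genes, with a coefficient of variation of 5.05% over the A numbers. Ebp, the sterol isomerase, was the lowest synthesis gene, at 4.13, 3.48 and 1.87 FPKM in Ctrl and 3.09, 3.14 and 3.12 FPKM in cKO. The Ctrl values lay on both sides of the cKO values, with A8 lowest.

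The spread between A numbers had a shared order in many of the synthesis genes, which was noticed after their values were seen and is given as a description. Within Ctrl, A8 was below both A1 and A2 in 11 of 18 synthesis genes (61.1%), against 43.0% of all tested genes. Within cKO, A10 was above both A4 and A9 in 13 of 18 (72.2%), against 38.0% of all tested genes. Both held in 9 of 18, against 18.6% of all tested genes: Hmgcs1, Pmvk, Idi1, Sqle, Lss, Cyp51, Msmo1, Hsd17b7 and Dhcr7. Both also held in Srebf2 and Insig1 among the 7 sensing genes, and in Abcg1 and Stard4 among the 8 export, transport and turnover genes. A10 was the highest A number in 8 of 18 synthesis genes, against 13.9% of tested genes. A8 was the lowest in 7 of 18, against 26.1% of tested genes. Genes do not vary independently of each other, so these counts are not separate observations.

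**Figure D3:**
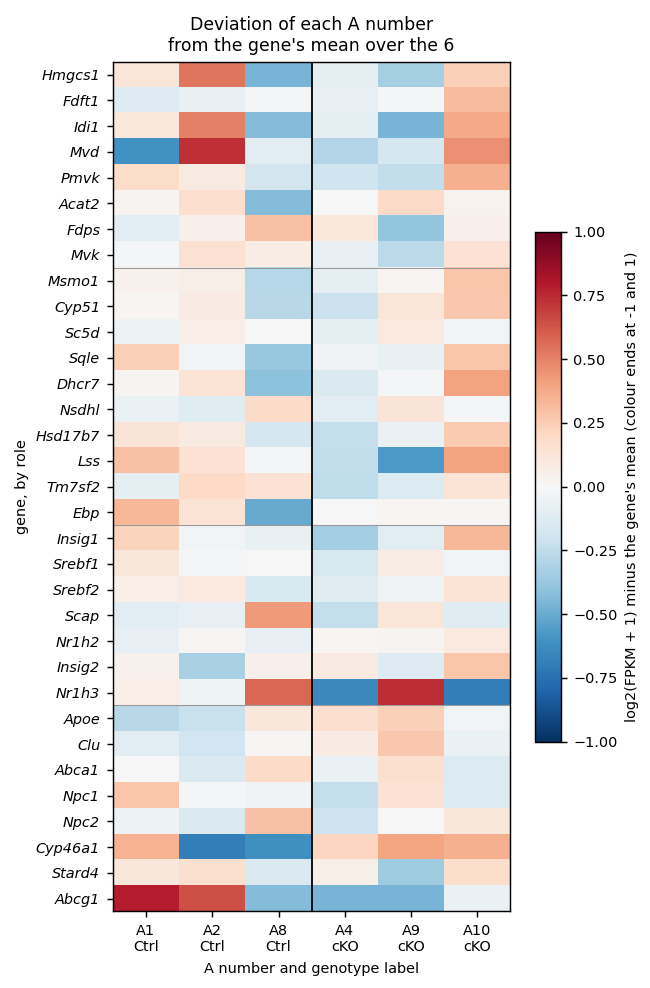
Deviation of each A number from the gene's mean over the 6, in log2(FPKM + 1), for the 33 genes in the order of the plot of levels; red is above and blue below the mean, and the black line parts Ctrl from cKO. Among the 18 synthesis genes, the first in the plot, A8 is blue in 13, A4 in 15 and A9 in 12. A10 is red in 16 of them, A2 in 15 and A1 in 11.

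Among the sensing and transcription genes, Srebf1 and Srebf2, which encode the SREBP factors, averaged 68.1 ± 3.25 and 45.1 ± 4.19 FPKM in Ctrl (SD, n = 3). In cKO they averaged 64.8 ± 5.41 and 44.8 ± 4.18 FPKM. Srebf2, whose product drives mainly the cholesterol genes (ENSMUSG00000022463, chromosome 15, start 82031382, end 82089580), stood at 47.0, 47.9 and 40.2 FPKM in A1, A2 and A8 and at 41.2, 43.8 and 49.4 FPKM in A4, A9 and A10. Its order therefore had A8 lowest and A10 highest, as in Msmo1. Insig1, itself a target of the SREBPs, stood at 78.8, 66.1 and 64.1 FPKM in Ctrl and 53.2, 62.8 and 85.4 FPKM in cKO. The cKO values enclosed the Ctrl values. Insig2, its paralog, had means of 7.28 ± 1.17 (Ctrl) and 8.22 ± 1.30 FPKM (cKO), SD over 3 each (log2 fold change 0.15, SE 0.18, limma adjusted p = 0.917). The difference ran from 0.030 without A2 to 0.26 without A9. Scap, the escort of the SREBPs, had means of 10.7 ± 2.56 (Ctrl) and 9.34 ± 1.33 FPKM (cKO), with A8 alone at 13.6 FPKM (log2 fold change -0.16, SE 0.20, limma adjusted p = 0.921); without A8 the difference was 0.013, without A9 it was -0.26 and with the covariate -0.52.

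The LXR receptors had unlike levels. Nr1h2, which encodes LXR beta, stood at 8.73, 9.39 and 8.74 FPKM in Ctrl and 9.45, 9.49 and 10.02 FPKM in cKO. It was the only gene of the 33 in which all 3 cKO A numbers lay on one side of all 3 Ctrl A numbers, and the gap was narrow. The log2 fold change was 0.10 (SE 0.13, 95% interval -0.20 to 0.40, limma adjusted p = 0.924), and 0.20 with the covariate. Nr1h3, which encodes LXR alpha, was the lowest of the 33 genes, at 1.33, 1.15 and 2.29 FPKM in Ctrl and 0.417, 2.70 and 0.375 FPKM in cKO, with as few as 16 reads in a library. Its cKO values lay on both sides of all Ctrl values (log2 fold change -0.39, SE 0.48, 95% interval -1.52 to 0.74, limma adjusted p = 0.920). The difference ran from -0.86 without A9 to -0.15 without A10, and was -0.86 with a pseudocount of 0.1 and -1.11 with the covariate.

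Among the export, transport and turnover genes, Apoe (ENSMUSG00000002985, chromosome 7, start 19430034, end 19433113) stood at 1484, 1544 and 1946 FPKM in A1, A2 and A8, and at 2025, 2122 and 1768 FPKM in A4, A9 and A10. A8 lay inside the cKO range, above A10. Ctrl averaged 1658 ± 251 and cKO 1972 ± 183 FPKM (SD, n = 3 each), and the log2 fold change was 0.26 (SE 0.16, 95% interval -0.12 to 0.63, limma adjusted p = 0.805). It ran from 0.18 without A1 to 0.38 without A8 (limma adjusted p = 0.316), and turned to -0.18 with the covariate. Clu (ENSMUSG00000022037, chromosome 14, start 66205932, end 66218996) stood at 690, 651 and 749 FPKM in Ctrl and at 787, 895 and 712 FPKM in cKO, with A10 inside the Ctrl range (log2 fold change 0.19, SE 0.13, 95% interval -0.12 to 0.50, limma adjusted p = 0.835). It ran from 0.11 without A9 to 0.27 without A10, and turned to -0.084 with the covariate. The ratio of Apoe to Hmgcs1 was 15.9, 12.4 and 31.5 in A1, A2 and A8, and 25.2, 31.2 and 17.5 in A4, A9 and A10. It was lowest in A2, A1 and A10, the A numbers in which Hmgcs1 was highest. Hmgcs1 is the divisor of this ratio, so that relation is partly built in.

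The transporter genes differed from each other. Abca1, the lipid exporter that loads apolipoproteins, stood at 51.3, 46.3 and 58.9 FPKM in Ctrl and 48.9, 57.4 and 46.8 FPKM in cKO, with means of 52.2 ± 6.37 and 51.0 ± 5.62 FPKM. Abcg1, which passes sterol on to lipoprotein particles (ENSMUSG00000024030, chromosome 17, start 31276649, end 31336962), stood at 5.996, 5.36 and 2.002 FPKM in Ctrl and 1.94, 1.95 and 2.87 FPKM in cKO. A1 and A2 were above all other A numbers, and A8 lay inside the cKO range. The log2 fold change was -0.67 (SE 0.35, 95% interval -1.51 to 0.17, limma adjusted p = 0.748). It ran from -0.44 without A1 to -1.05 without A8 (limma adjusted p = 0.156), and turned to 0.52 with the covariate. A1 and A2, in which Abcg1 was high, also had the highest oligodendrocyte marker levels. Summed ependymal markers (230 and 215 FPKM), neuronal markers and oligodendrocyte precursor markers were likewise highest in A1 and A2. The part of these cells in Abcg1 was not tested further.

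Cyp46a1, cholesterol 24-hydroxylase, which turns cholesterol into an oxysterol that can leave the brain and is known mainly from neurons, had the smallest p of the 33 genes (ENSMUSG00000021259, chromosome 12, start 108300640, end 108328493). It stood at 13.8, 6.21 and 6.60 FPKM in Ctrl and 12.5, 14.3 and 13.9 FPKM in cKO. A1 lay with the cKO values, and A2 and A8 at about the same lower level. The log2 fold change was 0.64 (SE 0.28, 95% interval -0.03 to 1.31, limma adjusted p = 0.670), and it ran from 0.45 without A2 to 0.97 without A1 (limma adjusted p = 0.469). With the covariate it was 0.998. Summed neuronal markers (7 genes) were 6.03 to 9.87 FPKM in Ctrl and 3.28 to 6.45 FPKM in cKO; they were thus on the whole lower in cKO, where Cyp46a1 was higher, and their part in it was not tested. Npc1 and Npc2, which pass sterol out of the lysosome, had Ctrl means of 26.6 and 14.7 FPKM and cKO means of 23.8 and 13.9 FPKM, and Stard4, a sterol carrier of the cytosol, 7.52 and 7.09 FPKM. In each of these the genotypes overlapped.

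Markers of other cells were read beside these values, because oligodendrocytes also make much cholesterol for myelin. In bulk samples, fewer cells of a type and less RNA per cell cannot be told apart. The 10 astrocyte markers summed to 3653 to 4466 FPKM in Ctrl and 4358 to 5004 FPKM in cKO. The 10 oligodendrocyte markers summed to 982 to 2098 FPKM in Ctrl and 283 to 674 FPKM in cKO, and all 10 were lower in cKO, none of them at 0. The mean log2 level of the oligodendrocyte markers was 6.50, 6.60 and 5.54 in A1, A2 and A8, and 3.92, 4.32 and 5.20 in A4, A9 and A10. In each genotype the A numbers with the lowest synthesis levels were thus among those with fewer oligodendrocyte transcripts: A8 in Ctrl, A4 and A9 in cKO. The mean log2 level of the 18 synthesis genes was 4.18, 4.32 and 3.99 in A1, A2 and A8, and 4.04, 4.04 and 4.38 in A4, A9 and A10. Summed choroid plexus markers (3 genes) were 444 FPKM in A10 and 1.48 to 69.6 FPKM in the others, so they were highest in A10, as the synthesis genes were. The oligodendrocyte markers were instead highest in A2, and their level in A10 was below that of every Ctrl A number. Mural markers (5 genes) summed to the lowest value in A8, 62.7 FPKM, and the highest in A10, 136 FPKM. Ependymal markers (5 genes) and neuronal markers were likewise lowest in A8 within Ctrl and highest in A10 within cKO: the ependymal sums were 55.3 to 230 FPKM in Ctrl and 47.8 to 154 FPKM in cKO. Oligodendrocyte precursor markers (5 genes) had this order too, at low sums of 5.70 to 11.1 FPKM in Ctrl and 6.19 to 7.90 FPKM in cKO. Endothelial markers (5 genes) were lowest in A8 within Ctrl (4.35 FPKM), but in cKO were highest in A4 (28.8 FPKM), with A10 at 4.34 FPKM. Microglial markers (6 genes) did not overlap between genotypes, at 2.62 to 4.20 FPKM in Ctrl and 5.95 to 14.2 FPKM in cKO. The microglial and astrocyte sums ran the other way, highest in A8 within Ctrl and lowest in A10 within cKO. By mean log2 level this held only in part. Microglial markers were then lowest in A8 within Ctrl (0.418) and lowest in A10 within cKO (0.621). Astrocyte markers were at 7.73, 7.94 and 7.93 in A1, A2 and A8, and at 8.01, 8.125 and 8.07 in A4, A9 and A10. Only 1 of the 6 microglial markers passed the filter on low values. The part of these cells in the synthesis levels was not tested. With the oligodendrocyte marker level as a covariate in the genotype fit, 16 of 18 synthesis genes were higher in cKO (54.2% of all tested genes were), with a median log2 fold change of 0.57 against 0.06 for all genes. In that fit 4 of them (Cyp51, Dhcr7, Msmo1 and Sqle) had an unadjusted p under 0.05, as did 5.87% of all tested genes, and 0 a limma adjusted p under 0.05. The sign differed from that without the covariate in 16 of the 33 genes, against 36.2% of all tested genes. The marker level did not overlap between the genotypes, so genotype and marker level cannot be told apart fully by this fit.

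**Figure D4:**
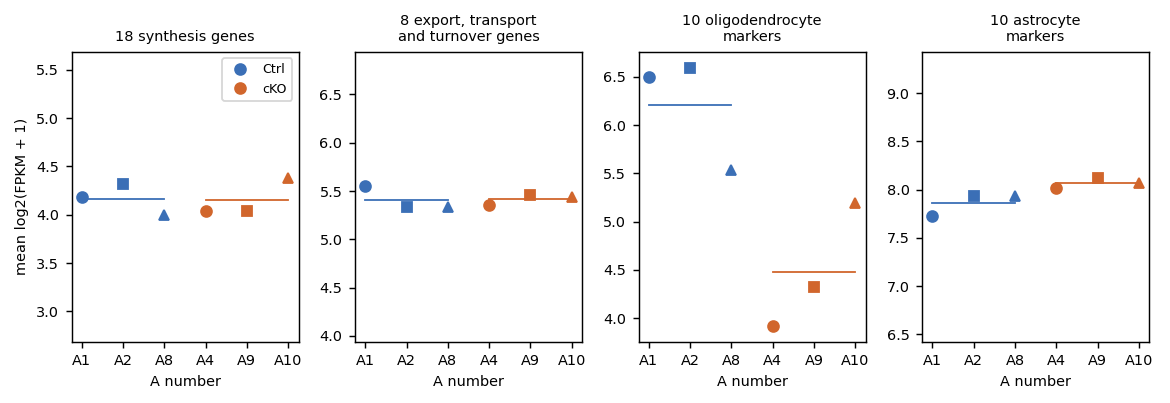
Mean log2(FPKM + 1) of the 18 synthesis genes, the 8 export, transport and turnover genes, the 10 oligodendrocyte markers and the 10 astrocyte markers in each A number; each axis spans 3 units, and lines are genotype means. The synthesis means overlap between genotypes (3.99 to 4.32 in Ctrl, 4.04 to 4.38 in cKO), while the oligodendrocyte means do not.

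A wider list of 38 genes covered acetyl-CoA supply, sterol sensing, esterification, oxysterols, sterol transfer, lipoprotein receptors and fatty acid synthesis. Of these, 37 were tested (Ch25h was below the filter) and 0 passed; 3 had an unadjusted p under 0.05, all lower in cKO, against 4.71% of tested genes lower at that level. Apod, which encodes apolipoprotein D, a carrier of small lipids, stood at 55.7, 62.9 and 36.6 FPKM in Ctrl and 9.07, 13.3 and 26.2 FPKM in cKO. The genotypes did not overlap (log2 fold change -1.71, SE 0.38, limma adjusted p = 0.333). The oligodendrocyte markers were lower in the same A numbers, and with their level as a covariate the difference was -0.12 (limma adjusted p = 0.955). That level did not overlap between the genotypes, so the fit cannot fully tell it from genotype, and its part in Apod was not tested. Nceh1, a cholesteryl ester hydrolase, had means of 7.88 ± 1.27 (Ctrl) and 4.51 ± 0.738 FPKM (cKO), SD over 3 each (log2 fold change -0.69, SE 0.19, limma adjusted p = 0.424). Rxra, which encodes a partner of the LXR receptors, averaged 5.57 ± 0.614 and 3.58 ± 0.446 FPKM (log2 fold change -0.52, SE 0.17, limma adjusted p = 0.531). Its paralog Rxrb, also in this list, stood at 7.11, 5.88 and 4.87 FPKM in Ctrl and 6.22, 3.79 and 5.48 FPKM in cKO. In Rxrb the genotypes overlapped. Without overlap between genotypes there were 5 genes of this list lower in cKO and 1 higher, against 7.26% and 5.73% of tested genes.

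The S1 and S2 libraries of an A number were compared as a check on single values, a test chosen after the data were seen. Blocking on A number, limma called 243 tested genes (1.39%) at an adjusted p under 0.05, among them 2 of the 33. The S2 value of Idi1 exceeded S1 in 6 of 6 A numbers, by 0.30 on the log2 scale (SE 0.05, limma adjusted p = 0.0255), and Fdft1 in 6 of 6 by 0.09 (limma adjusted p = 0.0351). Averaging S1 and S2 takes both into each A number equally.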

How the data were processed

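RNA of ACSA-2-sorted hippocampal astrocytes was sequenced in 12 libraries. The deposited values are FPKM per gene, and FPKM times gene length in kilobases sums to 1000000 in each library; FastQC, STAR, featureCounts and DESeq2 and the builds mm10 and GRCm38 are named per the submitters' processing notes, with no versions. The deposited gene coordinates lay within 1000 bases of the RefSeq GRCm38 gene for 1 of the 33 genes, so their build is not settled here and they are printed as deposited. Depth was recovered from the steps between low values. Of all values above 0 in a library, 82.8% to 86.3% came out as whole reads (tolerance 0.05 of a read), too few for a count test.

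Repeated symbols (147) were summed, and 17540 genes with a mean of at least 1 FPKM were kept, among them all 33. S1 and S2 were averaged as log2(FPKM + 1) per A number, and 3 Ctrl and 3 cKO A numbers were compared with limma 3.58.1 (R 4.3.3, eBayes with trend), with Benjamini-Hochberg adjustment over all 17540 genes and a threshold of 0.05. Fold changes on this scale understate the change of low genes. The script was tested on simulated data. The replicate number marks S1 and S2 of one A number and pairs no Ctrl with a cKO sample; deviations of S2 from S1 correlated at 0.133 to 0.190 between A numbers. Full statistics are given for Gfap, Apoe and Clu, and for the 3 genes with the smallest unadjusted p within each role and in the wider list; Hmgcs1 and Nr1h2 were added after their values were seen, and the levels of the other members are described. The members and lists were chosen with earlier results of these data known. Alternatives covered pseudocount, filter, scaling, S1 or S2 alone, each A number left out, all 12 libraries, and oligodendrocyte marker level.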

Additional observations from a re-analysis of the deposited data

How the results depend on the processing

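Under every alternative run, 0 of the 33 genes passed the adjusted threshold. With all 12 libraries and the A number as a random effect (consensus correlation 0.915), 112 of all genes passed. When the replicate block was added, 80 did. These fits use the same correlation for every gene and more libraries than A numbers, so their p-values can be too small. In them Apod had limma adjusted p-values of 0.0251 and 0.0354. With the oligodendrocyte marker level as a covariate its difference was -0.12 (limma adjusted p = 0.955), and the part of that level in Apod was not tested. With 1 A number left out, 0 to 1 genes passed, the synthesis median ran from -0.09 to 0.10 and the export median from -0.070 to 0.064, so the signs of both rest on single A numbers. With the oligodendrocyte marker level as a covariate the synthesis median was 0.57, and signs turned for 16 of the 33 genes, among those tested by name Hmgcs1 (0.81), Lss (0.47), Abcg1 (0.52), Mvk (0.088), Tm7sf2 (0.072), Apoe (-0.18) and Clu (-0.084). Hmgcs1 also turned without A2 (0.11) and without A9 (0.01), and Scap without A8 (0.013); with 1 A number left out, they ran from -0.39 to 0.11 and from -0.26 to 0.013. The cause was not tested. With 3 A numbers per genotype, differences well under 2-fold were within the error of most of these genes.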
